A study of Rattus norvegicus with 8 samples.

Results

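The members of the miR-23, miR-27 and miR-24 clusters were examined in synovium, the membrane that lines the joint capsule, from left knees of Sprague-Dawley rats. They are rno-miR-23a-3p, rno-miR-23b-3p, rno-miR-24-3p, rno-miR-27a-3p and rno-miR-27b-3p, chosen by their names on the array, and make up 5 of the 758 rat miRNAs on it. RNA was hybridised to 8 single-colour (Cy3) Agilent miRNA arrays. In the 4 ACLT samples the anterior cruciate ligament had been transected, which models osteoarthritis by surgery, and in the 4 sham samples the joint had been opened and the ligament exposed but left intact, so that both groups share the opened joint. No genetic change or drug is named for either group, and age and sex are not given in the sources used here. The tissue was taken on the side of the joint away from the incision. The time after surgery is not settled, since the protocol gives 2 weeks and the series title 14 days, but the design text 7 days. The labels number the replicates without saying that they came from separate animals, so p-values measure only how these samples vary, and that variation may be technical. The comparisons ask whether these miRNAs differ in the synovium once the ligament is cut, and whether the a and b copies of a miRNA differ in the same way.

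A miRNA guides the silencing machinery to messenger RNAs that pair with its seed, the bases near its 5′ end, so that miRNAs with 1 seed share most of their targets. Humans and mice carry this cluster in duplicate, an intergenic a copy and a b copy within an intron of a host gene, and each copy is transcribed as a single precursor that holds a miR-23, a miR-27 and a miR-24 hairpin. The family is abundant in endothelium and connective tissue. In human cells miR-23a and miR-23b repress mitochondrial glutaminase, and miR-23b also restrains cytokine signalling through TAB2, TAB3 and IKKα and was reported low in inflamed synovium of patients and mice. miR-27 species repress PPARγ and so fat cell formation, and in human chondrocytes miR-27b targets the collagenase MMP13. miR-24 represses the cell cycle inhibitor p16INK4a in human cells.

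All 5 members have an entry in RefSeq, whose sequences are given here for build GRCr8 because they show how little separates the a copy from the b copy. Capitals mark the seed, bases 2 to 8 counted from the 5′ end.
miR-23a-3p: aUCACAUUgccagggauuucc
miR-23b-3p: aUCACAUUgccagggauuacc
miR-27a-3p: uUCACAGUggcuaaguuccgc
miR-27b-3p: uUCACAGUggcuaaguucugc
miR-24-3p: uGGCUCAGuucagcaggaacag

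miR-23a-3p and miR-23b-3p are identical at 20 of 21 bases and have the same seed. Their difference is U19A (the base of miR-23a first, positions counted from the 5′ end), which lies outside the seed. miR-27a-3p and miR-27b-3p are likewise identical at 20 of 21 bases with a shared seed, and differ by C19U. The seeds of miR-23 and miR-27 differ at 1 of 7 bases (U7G, miR-23 first), and the miR-24 seed differs from both at every position. Of 693 rat mature miRNA names in that table, no others carried these seeds. Because the a and b copies differ by a single base, probes for one copy may also bind the other, and how far they did so was not tested.

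The a cluster lies on chromosome 19 and the b cluster on chromosome 17, both on the minus strand. Mature miR-23a-3p is at chr19:40859778-40859798, miR-27a-3p at chr19:40859614-40859634 and the a copy of miR-24-3p at chr19:40859481-40859502. On chromosome 17 miR-23b-3p is at chr17:1819405-1819425, miR-27b-3p at chr17:1819163-1819183 and the b copy of miR-24-3p at chr17:1818672-1818693. The 3 hairpins span 389 bases in the a cluster and 814 bases in the b cluster, in the order miR-23, miR-27, miR-24 along the direction of transcription. The hairpins of miR-24 are printed because this is the one member that the array cannot assign to a cluster: capitals mark the mature miR-24-3p, which is the same in both, and the flanks differ.
Mir24-2 (a cluster): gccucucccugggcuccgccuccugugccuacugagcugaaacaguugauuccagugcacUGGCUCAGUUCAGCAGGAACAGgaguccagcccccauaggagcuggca
Mir24-1 (b cluster): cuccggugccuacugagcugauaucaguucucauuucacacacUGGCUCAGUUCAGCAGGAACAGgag

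Each member was read by 2 probes of 8 spots per array, one brighter and one dimmer. All 10 probes were well above background in every spot used on all 8 arrays, no spot was saturated, and all 5 members were called detected on all arrays, as were 103 of the 758 miRNAs. Spots of a member's probe on an array varied with a coefficient of variation of 1.19% to 14.4% (median 4.88%). The brighter probe is the one reported below unless the other is named. Probes differ in how brightly they label and bind, so levels are set against each other only for the same probe, and never to say which member is more abundant.

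The arrays differed in overall brightness, and the members' signals followed it. Brightness was taken as the 75th percentile over the 136 probes detected above background throughout, which for ACLT replicates 1 to 4 came to 797, 1097, 353 and 305, and for sham replicates 1 to 4 to 289, 317, 353 and 1185. The processed signal of miR-23a-3p was 2003, 2466, 920 and 711 on the ACLT arrays and 649, 790, 740 and 2972 on the sham arrays. That of miR-27b-3p was 1361, 1924, 552 and 410 on the ACLT arrays and 461, 509, 396 and 1764 on the sham arrays. The bright arrays, ACLT replicates 1 and 2 and sham replicate 4, were the 3 highest for every member. From a member's own lowest array to its highest the signals ranged over 3.68-fold to 4.86-fold, and once divided by the array's 75th percentile over 1.24-fold to 1.58-fold. The log2 of this relative signal is the level used below. Values under a floor of 0.0449, about the lowest signal well above background, were set to it, which touched no member. A miRNA was tested where every array of either group detected it, which left 113, of which 78 were above the floor on every array.

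**Figure D1:**
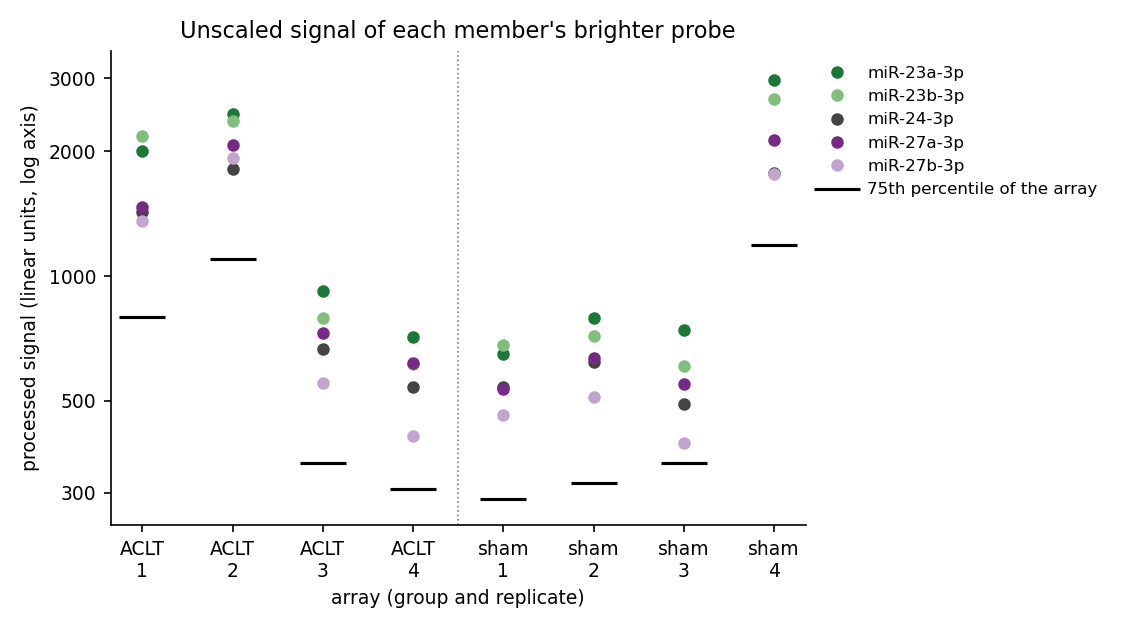
Processed signal of the brighter probe of each member (points, linear units on a log axis) on every array, ACLT replicates left and sham replicates right, with the array's 75th percentile as a black bar. The members move up and down with the array's brightness, with ACLT replicates 1 and 2 and sham replicate 4 the brightest.

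Among the miRNAs that mark cell types, those of mesenchymal cells (miR-199a-5p, miR-199a-3p and miR-214-3p) were detected on all arrays, and 0 of 7 epithelial ones on any. miR-126a-3p of endothelium averaged -0.04 ± 0.14 on ACLT arrays and 0.16 ± 0.26 on sham arrays (log2 level, SD, n = 4 each), and miR-126a-5p was detected on none. Mean log2 levels of the tested miRNAs on ACLT and sham arrays were 0.046 and 0.35 for smooth muscle (1 miRNA) and -3.41 and -3.21 for leukocytes. They were -2.63 and -2.27 for erythroid cells, -2.87 and -3.05 for cartilage and 0.83 and 0.78 for mesenchymal cells (3 miRNAs each). Of the erythroid miRNAs, miR-144-3p and miR-451-5p had differences, ACLT minus sham, of -0.69 and -0.53, and miR-486 one of 0.14. In the cartilage list miR-455-3p lay near the floor in both groups (-4.47 and -4.40), and miR-140-3p and miR-140-5p had differences of 0.25 and 0.38. Striated muscle miRNAs, 6 of 8 detected on at least 1 array, varied most: the mean log2 level of the 4 tested ran from -4.47 to 1.5 on ACLT arrays and from -1.92 to 0.052 on sham arrays. The -4.47, on ACLT replicate 2, lay almost at the floor (-4.48 in log2), so the floor set the lower end of that range. The part of these differences in the values below was not tested. In bulk tissue, fewer cells of a type and less RNA per cell cannot be told apart.

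The miR-23 members, whose shared seed targets glutaminase in human cells, lay close together in the groups. miR-23a-3p had log2 levels of 1.33, 1.17, 1.38 and 1.22 on ACLT replicates 1 to 4, against 1.17, 1.32, 1.07 and 1.33 on sham replicates 1 to 4. The groups overlapped over most of their range, and the steadiness of this miRNA across arrays (SD 0.108 over all 8) was the greatest of the 78 miRNAs above the floor on every array. miR-23b-3p had levels of 1.45, 1.11, 1.17 and 1.01 on the ACLT arrays, against 1.24, 1.18, 0.78 and 1.17 on the sham arrays. Its highest array was ACLT replicate 1 and its lowest sham replicate 3, which stood apart from the other sham arrays. With the dimmer probe sham replicate 3 was at -0.14, closer to sham replicate 4 at -0.057.

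The miR-27 members had the largest of the small mean differences. Levels of miR-27a-3p were 0.88, 0.92, 1.04 and 1.02 on ACLT arrays, against 0.89, 1.00, 0.64 and 0.85 on sham arrays. All 4 ACLT arrays lay above the sham mean for this member alone among the 5, which held for 5.31% of the 113 miRNAs tested, and its groups still overlapped. miR-27b-3p, the copy reported to target MMP13, had levels of 0.77, 0.81, 0.64 and 0.42 on ACLT arrays, against 0.67, 0.68, 0.16 and 0.57 on sham arrays. Without sham replicate 3, every remaining sham array of miR-27b-3p lay within the range of the ACLT arrays.

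miR-24-3p, which both clusters encode, had levels of 0.84, 0.72, 0.92 and 0.82 on ACLT arrays, against 0.90, 0.97, 0.48 and 0.58 on sham arrays. The ACLT arrays all lay within the range of the sham arrays, and their spread was smaller (SD 0.079 for ACLT and 0.24 for sham, n = 4 each). The difference between these spreads was not tested.

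**Figure D2:**
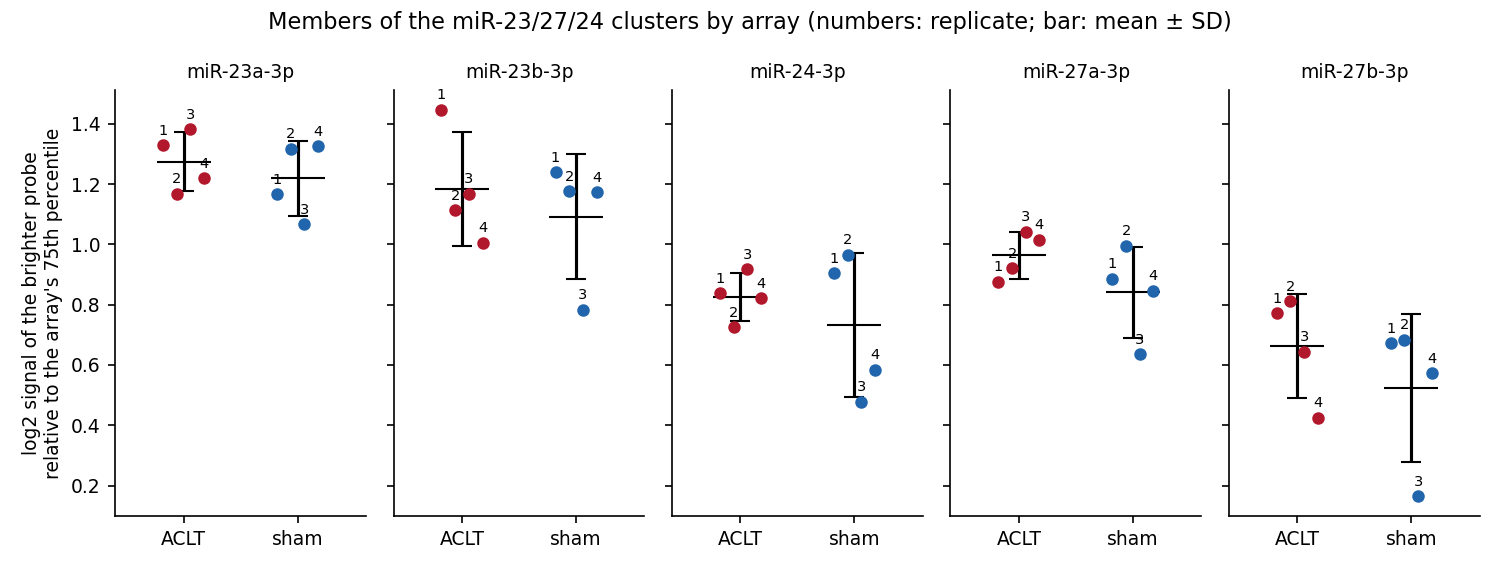
Log2 level of each member's brighter probe relative to the array's 75th percentile, ACLT left and sham right in each panel, with replicate numbers beside the points and the mean ± SD (n = 4) as a bar. The groups overlap for all 5 members, as they do for all 113 tested miRNAs, and sham replicate 3 is the lowest sham array in each panel. Heights are not comparable between panels, which show different probes.

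No member separated ACLT from sham, and 0 of the 113 tested miRNAs kept the arrays of the groups from overlapping. The mean log2 difference, ACLT minus sham, was 0.06 (SE 0.083) for miR-23a-3p, 0.09 (SE 0.14) for miR-23b-3p, 0.09 (SE 0.12) for miR-24-3p, 0.12 (SE 0.088) for miR-27a-3p and 0.14 (SE 0.14) for miR-27b-3p. As folds these are 1.04, 1.07, 1.07, 1.09 and 1.10. By limma over all 113 tested miRNAs, the Benjamini-Hochberg adjusted p of the members was 0.806 to 0.840 and the unadjusted p 0.205 to 0.526. The called share was 0% in the whole table too (0 of 113 at an adjusted p under 0.05, 8 at an unadjusted p under 0.05), and 0 of the 5 members reached an unadjusted p under 0.05. The 95% intervals of the members' folds reached from 0.853 at the lowest to 1.40 at the highest, for miR-27a-3p from 0.943 to 1.26 and for miR-23a-3p from 0.907 to 1.19.

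All 5 differences were above 0, as were 33.6% over all tested miRNAs (38 of 113), and their median was 0.09, against -0.07 over all tested. The members were named with these differences already known, they share arrays and, within a cluster, a precursor, and the count is a description. On sham replicate 3 the brighter probes of the members deviated from their own means by -0.18 to -0.43. Without that array the median of these probes came to 0.0075 and miR-23b-3p turned to -0.012. With the dimmer probes sham replicate 3 was the lowest sham array for miR-23b-3p and miR-27b-3p only. On sham replicate 3 the mean level of the mesenchymal list was 0.36, against 0.86 to 1.01 on the other sham arrays. That of the cartilage list was -3.53, the lowest of the 8 arrays, and that of the erythroid list -1.71, the highest of them. Whether this bears on the members was not tested.

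The sign also depended on how arrays were brought to one scale. The median of the members was 0.40 in the authors' value table, 0.42 with no scaling, 0.47 with the 75th percentile over all probes and 0.24 when 4 striated muscle probes were left out of the percentile. It was -0.11 with scaling to the labelling spike-in RNAs, where all 5 were negative, and -0.14 with quantile normalization, where only miR-27b-3p was positive. The median over all tested miRNAs moved as well, to 0.17 with no scaling, -0.21 with the spike-ins and 0 with quantile normalization. The members' median minus that of all tested miRNAs was 0.17 under the scaling used, 0.25 with the percentile over all probes, 0.11 with the spike-ins and -0.14 with quantile normalization. No member was called under any of 28 alternatives.

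**Figure D3:**
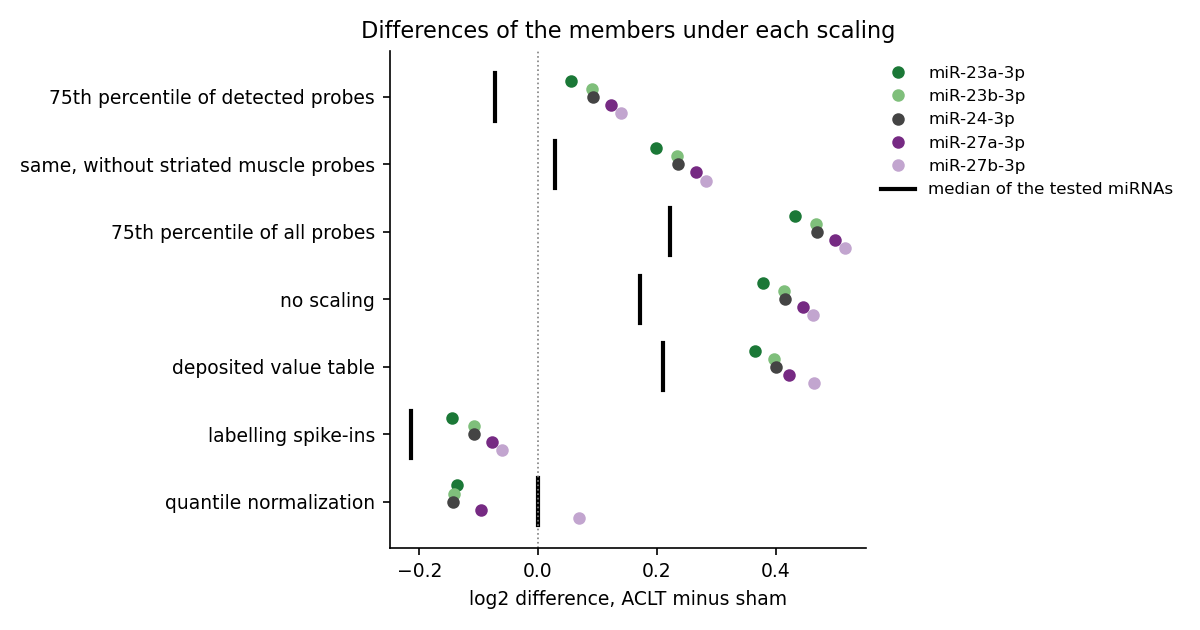
Log2 difference, ACLT minus sham, of each member (coloured points) and the median over the 113 tested miRNAs (black bar) under 7 ways of scaling the arrays. All 5 members are above 0 in the upper 5 rows, all 5 below 0 with labelling spike-ins, and 4 of 5 below 0 with quantile normalization.

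The dimmer probes gave smaller differences for 4 of 5 members. They were -0.0017 for miR-23a-3p, 0.037 for miR-23b-3p, 0.056 for miR-24-3p, 0.027 for miR-27a-3p and 0.14 for miR-27b-3p. The difference of miR-27b-3p was thus the most alike between probes, and that of miR-27a-3p was 0.12 with one probe and 0.027 with the other.

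By the headers, replicates 1 and 2 of each group were hybridised in slide row 1, and replicates 3 and 4 in slide row 2. Within row 1 the difference of miR-24-3p was -0.15 and within row 2 it was 0.34, and miR-27a-3p had -0.042 and 0.29. The other members were above 0 in both rows: miR-23a-3p at 0.0072 in row 1 and 0.10 in row 2, miR-23b-3p at 0.073 and 0.11, and miR-27b-3p at 0.11 and 0.17. With 2 arrays per group in a row, limma called none of the members in either (smallest adjusted p = 0.308 in row 1 and 0.521 in row 2).

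The a and b copies were then compared through their ratio on the same array, in which any factor that scales a whole array cancels. Quantile normalization is no such factor and moved the ratios: the difference, ACLT minus sham, became 0.0050 for miR-23a over miR-23b, -0.16 for miR-27a over miR-27b, -0.040 for miR-23a over miR-27a and -0.21 for miR-23b over miR-27b (smallest exact two-sided permutation p = 0.20). The values that follow are without it. A ratio of probes says nothing of relative abundance, and only its change between arrays is read. The log2 ratio of miR-23a to miR-23b was -0.12, 0.055, 0.21 and 0.21 on ACLT replicates 1 to 4, against -0.073, 0.14, 0.28 and 0.15 on sham replicates 1 to 4. It averaged 0.09 ± 0.16 on ACLT arrays and 0.13 ± 0.15 on sham arrays (SD, n = 4 each), a difference of -0.036 (SE 0.11, exact two-sided permutation p = 0.771).

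The log2 ratio of miR-27a to miR-27b was 0.11, 0.11, 0.40 and 0.59 on ACLT arrays, against 0.21, 0.31, 0.47 and 0.27 on sham arrays. The highest and the lowest arrays were both ACLT arrays. Means were 0.30 ± 0.24 on ACLT arrays and 0.32 ± 0.11 on sham arrays (SD, n = 4 each), a difference of -0.017 (SE 0.13, exact two-sided permutation p = 0.943). Shifts from -0.40 to 0.29 for the miR-23 copies and from -0.37 to 0.38 for the miR-27 copies were not rejected by the exact test at 0.05, so 4 arrays per group could not tell such shifts from none.

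Within a cluster the ratio differences were somewhat larger in size and no closer to passing the test after adjustment. miR-23a over miR-27a averaged 0.31 ± 0.11 on ACLT arrays and 0.38 ± 0.093 on sham arrays, a difference of -0.067 (SD, n = 4 each, exact two-sided permutation p = 0.371). miR-23b over miR-27b averaged 0.52 ± 0.16 on ACLT arrays and 0.57 ± 0.056 on sham arrays, a difference of -0.048 (SD, n = 4 each, exact two-sided permutation p = 0.686). The intervals of shifts not rejected were -0.28 to 0.17 and -0.32 to 0.18. Over these 4 ratios the adjusted p was 0.943 throughout, the smallest p that 70 arrangements allow being 0.0286. The groups overlapped in all 4 ratios, while 2.96% of the 3003 ratios between miRNAs above the floor kept ACLT and sham arrays apart. Over all 4 combinations of the brighter and dimmer probes, the reported one included, the differences ran from -0.093 to 0.018 for miR-23a over miR-23b and from -0.12 to -0.017 for miR-27a over miR-27b. Of the miR-27 combinations the reported one was the closest to 0.

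**Figure D4:**
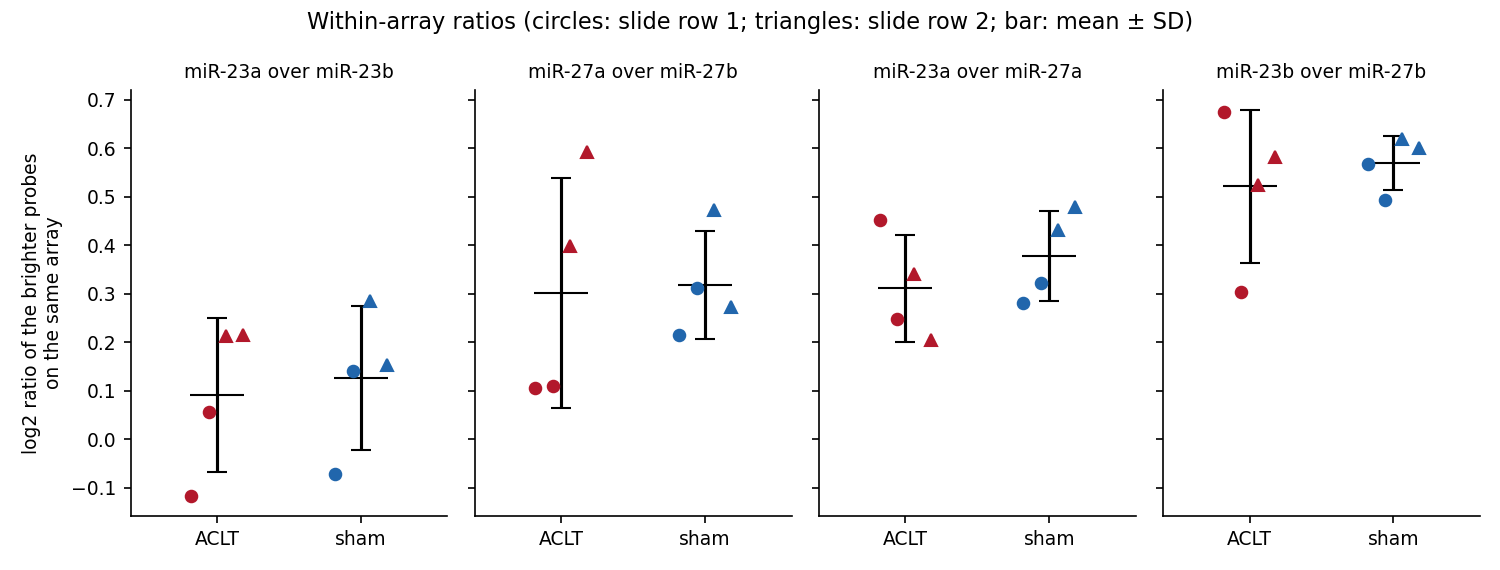
Log2 ratio of brighter probes on the same array for the a over b copies (2 left panels) and for miR-23 over miR-27 within each cluster (2 right panels), ACLT left and sham right, with the mean ± SD (n = 4) as a bar. Circles are arrays of slide row 1 and triangles of row 2. The groups overlap in all panels, and in the first panel every triangle lies above every circle.

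The a over b ratios had higher means in slide row 2 than in row 1, which was not tested. For miR-23a over miR-23b they ran from 0.15 to 0.28 in row 2 and from -0.12 to 0.14 in row 1, without overlap, as did 4.40% of the 3003 ratios between miRNAs above the floor. For miR-27a over miR-27b they ran from 0.27 to 0.59 in row 2 and from 0.11 to 0.31 in row 1, with overlap. The b copies differed more between the rows than the a copies did: miR-27b-3p was at 0.16 to 0.64 in row 2 and 0.67 to 0.81 in row 1, without overlap, as was 5.13% of the 78 single miRNAs, and miR-23b-3p averaged 1.03 in row 2 and 1.24 in row 1. The a copies had row means within 0.035 of each other. With the dimmer probe of miR-27b-3p the rows overlapped. There ACLT replicate 3 of row 2 was at -0.72, above the highest array of row 1 at -0.74. Over the 4 combinations of brighter and dimmer probes, row 2 minus row 1 was 0.17 to 0.21 for the miR-23 copies, with the rows apart in 2 of 4. For the miR-27 copies it was 0.21 to 0.36, with rows overlapping in all 4 combinations. Since each row holds different replicates of both groups, slide position and the samples on it cannot be told apart. The rows were set out in this way after the values had been seen.

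Steadiness between 2 members was described by the SD, over the 8 arrays, of their log2 ratio. A low SD means a steady ratio, whatever the brightness of the arrays, whether 2 miRNAs moved together or neither moved much. Between the 10 pairs of members it was 0.098 to 0.18, against a median of 0.39 over all 3003 pairs of miRNAs above the floor (0.041 to 2.65). Near-constant miRNAs give low values with each other by construction.

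With the brighter probes, though not with the dimmer ones, both pairs of the same cluster had steadier ratios than the near-identical copies. The ratio of miR-23a to miR-27a had an SD of 0.10 and that of miR-23b to miR-27b one of 0.11, and each of miR-23b and miR-27b was the other's closest miRNA among 77. The copies had 0.14 for miR-23a with miR-23b and 0.17 for miR-27a with miR-27b, and the other pairs across clusters 0.18 each. By these probes miR-24-3p was closest to miR-27a-3p of the a cluster (0.098), and the SD was higher with miR-23a-3p (0.15), miR-23b-3p (0.16) and miR-27b-3p (0.17).

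That both same-cluster pairs lay below the pairs of miR-23 and miR-27 across clusters rested on the brighter probes. It held without each of the 8 arrays in turn, with outlier spots kept, with the scanner software's summary and with normexp. The order of the SDs with miR-24-3p did not always hold. Without ACLT replicate 1 it was 0.159 with miR-23a-3p and 0.137 with miR-23b-3p. By the dimmer probes miR-24-3p was no longer closest to miR-27a-3p (0.154), but to miR-23a-3p (0.130) and then miR-23b-3p (0.134). With the dimmer probes miR-23a and miR-23b had the lowest SD of all pairs (0.11), miR-23b and miR-27b had 0.12, and miR-23a and miR-27a had 0.19. With the mean of both probes miR-23a with miR-27a (0.138) also lay above miR-23a with miR-23b (0.125). The 2 probes of a single member disagreed by as much, with an SD of their log2 ratio from 0.083 for miR-24-3p to 0.19 for miR-27a-3p, so pair differences of this size lie within probe disagreement.

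**Figure D5:**
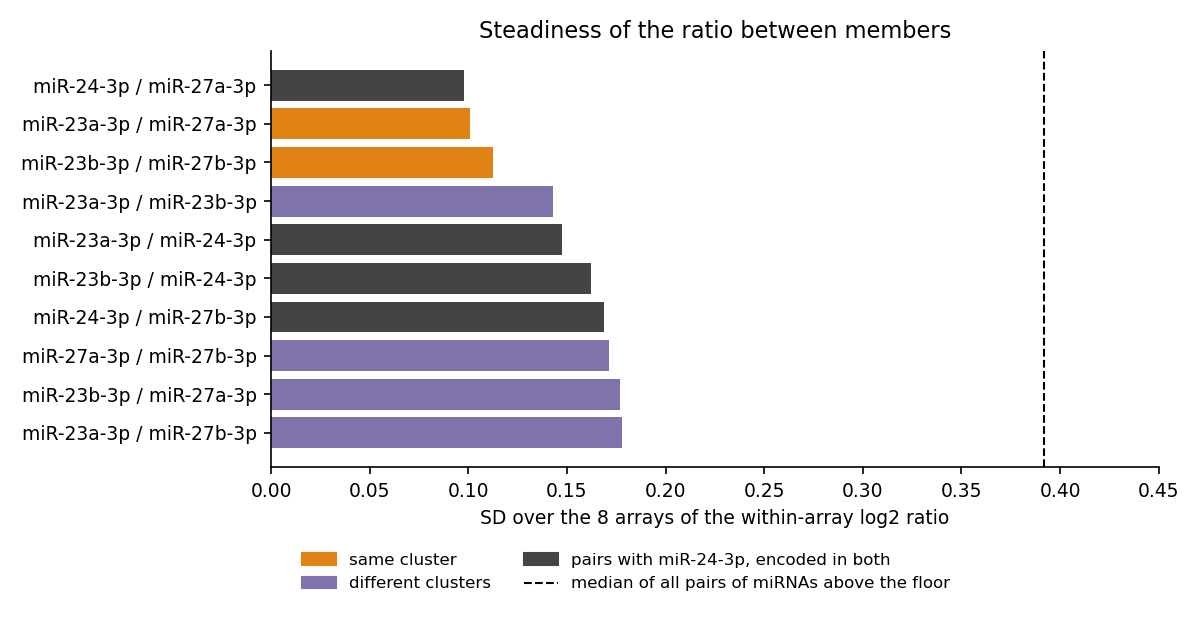
SD over the 8 arrays of the within-array log2 ratio between each pair of members (bars, brighter probes), coloured by whether the members share a cluster, with the median over all 3003 pairs of miRNAs above the floor as a dashed line. Both same-cluster bars (0.10 and 0.11) are shorter than the 4 bars of pairs across clusters (0.14 to 0.18), an order that the dimmer probes do not show.

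Outside the clusters, the 3 miRNAs with the steadiest ratio to each member overlapped between members. To miR-23a-3p these were miR-29a-3p (SD 0.0997), miR-98-5p (0.106) and miR-196a-5p (0.137), and to miR-23b-3p miR-98-5p (0.125), let-7a-5p (0.140) and let-7i-5p (0.166). To miR-27a-3p they were miR-196a-5p (0.109), let-7d-5p (0.116) and miR-29a-3p (0.127), and to miR-27b-3p miR-199a-5p (0.121), let-7b-5p (0.131) and miR-98-5p (0.132). After miR-221-3p (0.129), miR-24-3p had let-7b-5p (0.155) and miR-196a-5p (0.159). These are orders over 8 arrays that share the scanner and slide. The levels of miR-98-5p, miR-196a-5p and miR-29a-3p varied little themselves (SD 0.124, 0.133 and 0.139 over the 8 arrays), so a steady ratio to them need not be joint movement.

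The partner strands of the same hairpins, which are mostly degraded when the mature strand is loaded, were near background. Of the 7 partner RNAs on the array (miR-23a-5p, miR-23b-5p, miR-27a-5p, miR-27b-5p, miR-24-1-5p, miR-24-2-5p and miR-3074, from the strand opposite Mir24-1), 6 were detected on no array, and 0 could be tested. The seventh, miR-24-2-5p of the a cluster, is shown because its end, unlike miR-24-3p, is particular to one hairpin (seed in capitals).
miR-24-2-5p: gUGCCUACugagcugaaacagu
miR-24-1-5p: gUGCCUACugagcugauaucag

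miR-24-2-5p was called detected on ACLT replicate 2 and sham replicate 4, the 2 brightest arrays, with summary signals of 7.79 and 3.74, and on the other arrays it was listed at 0.1, the value for miRNAs not detected. None of its 4 probes was well above background on any array. The arrays therefore gave no usable reading of how much miR-24-3p came from each cluster.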

How the data were processed

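Per the file headers, the authors quantified spots in Agilent's Feature Extraction software, version 10.7.3.1 (protocol miRNA_107_Sep09, design 070154, with rn4 as the grid's build). The deposited processed signals are an intensity in linear units, background-subtracted and not scaled between arrays, per the file headers. The deposited value table equals the software's summary per miRNA exactly. Per the labels, Cy3-labelled cRNA was made from 50 ng of total RNA by a kit intended for messenger RNA, and which kit these arrays had is not settled. No per-sample column went unused for want of a sample.

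Control spots and outlier spots (9.01% to 11.1% of an array) were dropped, and a probe's remaining spots averaged. Signals were divided by the array's 75th percentile over 136 probes that were well above background (in at least 0.5 of their spots) on all arrays, 10 of which are probes of the members. Values under 0.0449, the median over arrays of the lowest signal well above background, were set to it before log2. Each miRNA is its brightest probe. The 113 miRNAs detected on all 4 arrays of either group were tested in R 4.3.3 by lmFit and eBayes of limma 3.58.1 (no covariate), with Benjamini-Hochberg adjustment. Ratios were tested by exact permutation (scipy 1.17.1) and intervals are at 95%, those of ratios being the shifts not rejected. The number of arrays limits the precision. Steps were tested on simulated data. For limma the planted differences were far larger than those of the members, whose size was not covered. Members, lists and tests were chosen with earlier results of these data known. Named besides the members are their partner strands and, per member, the 3 miRNAs with the steadiest ratio. Alternatives covered scaling, probe summary, background, filters, floor, variance model, slide row, replicate number and leaving out each array. The dimmer probes, the probe combinations and the settings for the SD of ratios were added after seeing the data. Replicate numbers were not taken as pairs, and whether they pair the samples is not settled (correlation of same-numbered deviations from -0.44 to 0.76).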

Additional observations from a re-analysis of the deposited data

Results flagged for a closer look

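miR-23b-3p on sham replicate 3 lay far from the other sham arrays, at 0.78 against 1.17 to 1.24, and its gap to the nearest took up 0.855 of the group's range. With the brighter probes it was the only such array in 18 groups of 4 arrays examined (5 levels and 4 ratios in both groups). About 1 in 20, or 0.9, is found by chance. With the brighter probes the other 4 members were also at their lowest sham level on sham replicate 3. With the dimmer probes this held for miR-27b-3p, but miR-23a-3p, miR-24-3p and miR-27a-3p were lowest on sham replicate 4. They were at -0.74, 0.059 and -0.89 there, against -0.67, 0.16 and -0.67 on sham replicate 3.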

How the results depend on the processing

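Of 264 values recomputed under the alternatives, 234 kept their direction and their side of the threshold (or moved by less than the spread between arrays where no test applies), and no member or ratio was called under any. Alternatives of the floor, filters, variance model and blocks cannot change a member's difference, only its p. Part of the count of 234 was thus fixed in advance. The count of called miRNAs was 0 except in the authors' value table (1) and within slide row 1 (8), none of them members, and 0 without each array. The median difference of the members was 0.40 in the authors' value table, 0.42 unscaled, 0.47 with all probes in the 75th percentile, 0.24 without striated muscle probes, -0.11 with labelling spike-ins and -0.14 with quantile normalization. Signs turned with labelling spike-ins for miR-23a-3p (-0.14), miR-23b-3p (-0.11), miR-24-3p (-0.11), miR-27a-3p (-0.077) and miR-27b-3p (-0.060), with quantile normalization for miR-23a-3p (-0.14), miR-23b-3p (-0.14), miR-24-3p (-0.14) and miR-27a-3p (-0.096), and within slide row 1 for miR-24-3p (-0.15) and miR-27a-3p (-0.042). The cause was not tested.

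Without single arrays the differences ran from 0.0049 to 0.091 for miR-23a-3p, -0.012 to 0.15 for miR-23b-3p, 0.0075 to 0.17 for miR-24-3p, 0.054 to 0.17 for miR-27a-3p and 0.020 to 0.22 for miR-27b-3p, the lowest of each without sham replicate 3 and their median from 0.0075 to 0.17. The ratio differences ran from -0.10 to 0.034 for miR-23a over miR-23b, -0.11 to 0.048 for miR-27a over miR-27b, -0.11 to -0.031 for miR-23a over miR-27a and -0.10 to 0.024 for miR-23b over miR-27b. They also changed sign for miR-23a over miR-23b with quantile normalization (0.0050, with miR-27a over miR-27b at -0.16 and miR-23b over miR-27b at -0.21), for miR-27a over miR-27b with outlier spots kept (0.00066) and within slide row 2 (0.12), and for miR-23a over miR-27a within slide row 1 (0.049). With the replicate block the differences stay as they are, miR-27a-3p at 0.12, and limma called 0 miRNAs. The labels do not say that shared numbers pair the samples, and correlations on 4 replicate numbers cannot settle it. Those of same-numbered samples were negative for 2 of 4, and 0.49 and 0.76 for replicates 2 and 3. Permutation within slide rows (36 arrangements), within replicate numbers (16) or in 1 row (6) cannot reach a p under 0.05.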
